A study of Mus musculus with 20 samples.

Results

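The RNA of 8 transcription factors that mark liver or kidney identity was followed across 20 libraries: Foxa1, Foxa2, Foxa3, Cebpa, Onecut1 and Prox1 as liver factors, and Pax2 and Pax8 as kidney factors. The rule named them and used no measured value, though it was set with earlier results of these data known, and each symbol was matched to its Ensembl identifier, which gave 8 of the 57010 genes in the table. The libraries held polyadenylated RNA of the liver and the kidney of male UM-HET3 mice, a genetically heterogeneous cross, that were 12 months old. Of each tissue, 6 samples came from mice given 7c and 4 from mice given vehicle. 7c is a mixture of repsox, tranylcypromine, DZNep, CHIR99021, forskolin and TTNPB, each at 0.1 mg/kg/day, with valproate at 1 mg/kg/day, and it was delivered for 28 days by osmotic minipumps under the skin. The vehicle, 50% DMSO with 50% PEG300, went through the same pumps. The labels name no transgene, and the questions were whether the RNA of the identity factors differed between the tissues and whether 7c, a mixture used for chemical reprogramming, changed it.

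FOXA proteins are pioneer factors of the forkhead family, which bind their sites in compacted chromatin and open liver enhancers for other factors. C/EBP alpha, the product of Cebpa, drives the metabolic genes of the mature hepatocyte, ONECUT1 and PROX1 are homeodomain factors needed as the liver bud grows and its cells take hepatocyte or bile duct fate, and PAX2 and PAX8 are paired-domain factors that build the kidney tubule and stay on in parts of the adult nephron. Loss of such factors is a common sign of cells leaving their identity during reprogramming.

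In GENCODE vM39 on GRCm39, the forkhead genes Foxa1, Foxa2 and Foxa3 lie on the minus strand at chr12:57587414-57593702, chr2:147884797-147889005 and chr7:18747209-18757471. Cebpa is a gene on the plus strand at chr7:34818718-34821353, Onecut1 on the plus strand at chr9:74769118-74800594 and Prox1 on the minus strand at chr1:189850232-189904637. The paired-domain genes Pax2 and Pax8 lie at chr19:44735057-44826703 on the plus strand and at chr2:24309418-24365617 on the minus strand.

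RefSeq gave 13 promoter windows for the 8 genes, each running from 250 bases before a transcription start to 50 after it, on GRCm38.p6. The 250 upstream bases of 4 of them are printed in lower case with every CG dinucleotide in capitals, because the factors ranged from the lowest to the highest CG content of the 13 windows and because these 4 include a gene read as 0 in every kidney (Onecut1), a gene read as 0 in every liver (Pax2), the factor with the highest level per length in liver (Cebpa) and the kidney factor with traces in liver (Pax8).
Onecut1 (chr9:74861671-74861920, plus strand): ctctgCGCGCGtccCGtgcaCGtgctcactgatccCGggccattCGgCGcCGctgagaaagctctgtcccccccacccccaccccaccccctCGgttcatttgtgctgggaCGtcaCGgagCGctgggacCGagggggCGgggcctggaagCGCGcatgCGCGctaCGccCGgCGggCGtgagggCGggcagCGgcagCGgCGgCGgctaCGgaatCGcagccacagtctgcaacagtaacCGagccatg
Cebpa (chr7:35119043-35119292, plus strand): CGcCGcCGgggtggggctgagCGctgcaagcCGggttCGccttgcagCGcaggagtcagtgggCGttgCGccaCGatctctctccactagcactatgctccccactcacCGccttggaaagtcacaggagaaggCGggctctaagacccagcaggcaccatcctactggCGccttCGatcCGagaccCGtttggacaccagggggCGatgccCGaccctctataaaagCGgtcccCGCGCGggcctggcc
Pax2 (chr19:44755502-44755751, plus strand): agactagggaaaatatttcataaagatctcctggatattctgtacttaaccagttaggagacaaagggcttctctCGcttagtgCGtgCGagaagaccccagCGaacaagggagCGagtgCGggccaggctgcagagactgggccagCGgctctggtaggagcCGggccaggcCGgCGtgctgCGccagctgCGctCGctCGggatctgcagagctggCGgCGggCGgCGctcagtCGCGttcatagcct
Pax8 (chr2:24475600-24475849, minus strand): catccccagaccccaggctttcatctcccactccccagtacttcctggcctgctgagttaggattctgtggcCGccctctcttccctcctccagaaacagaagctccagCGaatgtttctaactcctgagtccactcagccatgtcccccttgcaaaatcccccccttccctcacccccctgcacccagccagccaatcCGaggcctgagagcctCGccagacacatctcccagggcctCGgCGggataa
The ratio of observed to expected CG dinucleotides over the whole 300-base window was 0.951 at Onecut1, 0.853 at Cebpa, 0.812 at the Pax2 start shown and 0.288 at Pax8, the lowest of the 13 windows. The median of all 32851 mouse promoters of this length was 0.384, and 12 of the 13 windows of the factors lay above it. A set of 3 short words was searched for on both strands of all windows. TGTTTAC, a forkhead word, was found in the Foxa1 window and in 3.65% of all promoters. TTGCNNAA, a C/EBP word, was found in the Pax8 window and in 10.8% of all promoters. ATTGAT, a ONECUT word, was found in 1 of the Foxa2 windows and in 7.54% of all promoters. None of the 3 words contains another, and a match describes letters only.

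The total count was 28383359 to 34153084 in the 10 livers and 27855849 to 64872451 in the 10 kidneys, and each 7c liver library was smaller than each vehicle liver library. Levels are given as CPM, the counts of a gene relative to the size of its library, scaled by TMM factors computed over all 20 libraries. A gene was tested in a tissue where 50% or more of its libraries held 10 counts or more, which left 15012 genes in liver and 17749 in kidney. Of the 8 factors, 6 passed in liver (not Pax2 and Pax8), 4 in kidney (Cebpa, Prox1, Pax2 and Pax8) and 2 in both (Cebpa and Prox1). Among counts from 1 to 9, 76.5% of the liver values and 77.6% of the kidney values were even, so that a count of 2 is not firm evidence of more than 1 molecule. The labelled tissues fitted their markers. Alb and the other 7 hepatocyte markers summed to 101266 to 142480 CPM in liver and to 2530 to 3683 CPM in kidney, while the 7 proximal tubule markers summed to 88.9 to 168 CPM in liver and 9414 to 11130 CPM in kidney. Of the kidney tubule markers, Slc34a1, Umod, Slc12a1 and Kcnj1 had 0 counts in all livers. The sum of 6 skeletal muscle markers was 770 CPM in the liver of 7c replicate 6 and at most 2.19 CPM in the other livers.

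Each of the 6 liver factors was higher in every liver than in any kidney, and both PAX genes were higher in every kidney than in any liver, where 38.4% of the 18598 genes tested, and 36.9% of the 14163 that passed in both tissues, showed such a gap in either direction. Foxa1, Foxa2, Foxa3 and Onecut1 passed the count filter only in liver and Pax2 and Pax8 only in kidney, so these 6 entered the tissue contrast through the tissue where they were high, and neither their gaps nor their calls carry weight of their own. Cebpa and Prox1, which passed in both tissues, had the gap and were higher in liver past an adjusted p of 0.05 in edgeR's quasi-likelihood test in vehicle mice and in 7c mice, beside 30.0% and 34.4% of the 14163 genes that passed in both. Over all 18598 genes, 26.8% were called higher in liver and 31.0% higher in kidney in vehicle mice (57.9% in either direction), and 30.5% and 33.4% in 7c mice (64.0%). As bulk tissue was measured, fewer cells that express a factor and less of its RNA per cell cannot be told apart.

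**Figure D1:**
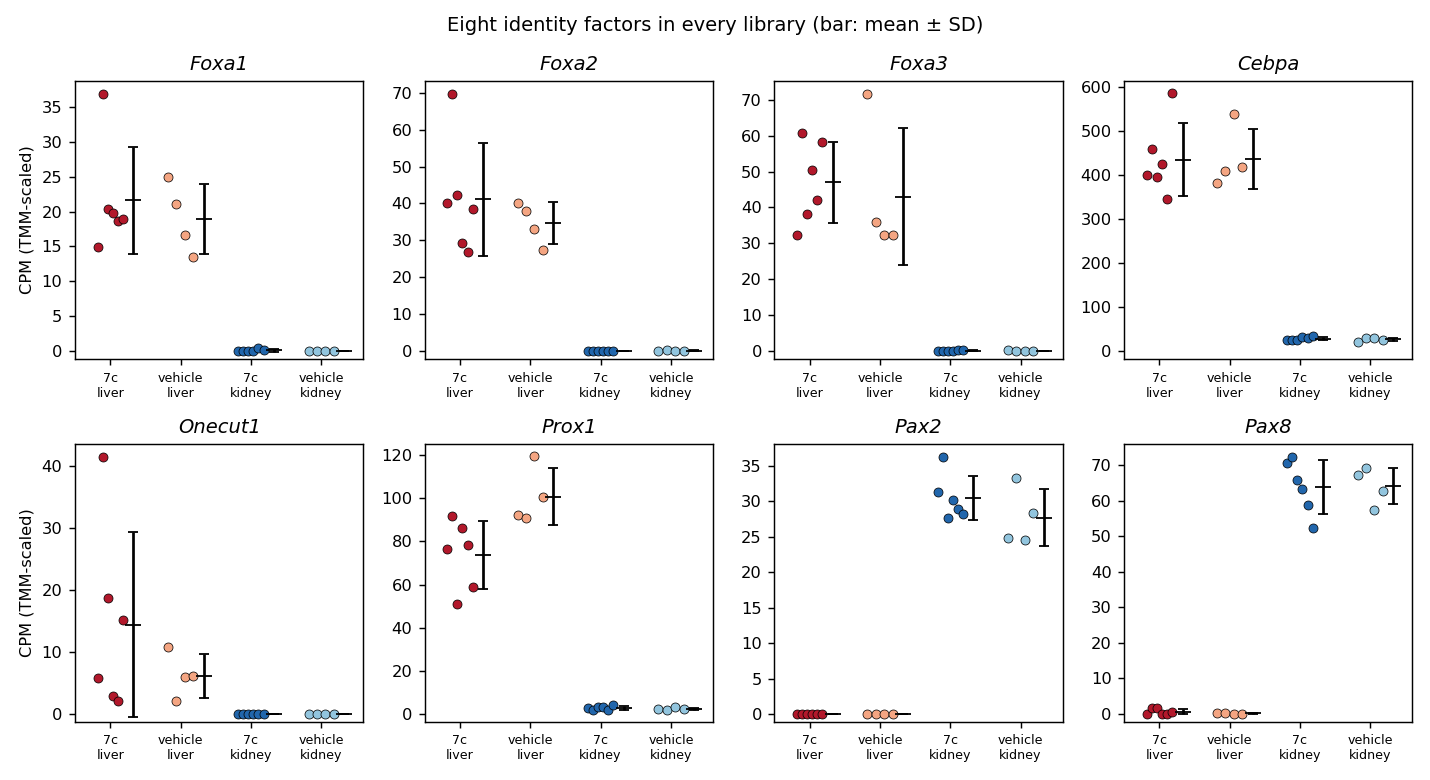
TMM-scaled CPM (vertical axes, from 0) of the 8 transcription factors in each of the 20 libraries, by treatment and tissue (horizontal axes). Points are libraries and bars show the mean ± SD of a group (n = 6 for 7c, n = 4 for vehicle); in none of the 8 panels do livers and kidneys overlap, whereas 7c and vehicle overlap in each tissue wherever a gene was tested.

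Foxa1, a forkhead factor that acts as a pioneer in the early liver and in other gut organs, was read at 13.4 to 36.8 CPM in liver. In vehicle livers it stood at 24.9, 21.0, 16.6 and 13.4 CPM, and in 7c livers the lowest, median and highest values were 15.0, 19.4 and 36.8 CPM. The 7c range enclosed most of the vehicle range, with 1 of 6 mice (replicate 2) above all vehicle livers. In kidney, Foxa1 had 0, 0, 2 and 0 counts in the vehicle mice and 2, 2, 0, 2, 20 and 6 counts in the 7c mice. The kidney of 7c replicate 5 held the 20 counts (0.503 CPM), and the lowest liver was still 26.8 times that level. In the same kidney, the 6 urothelium markers summed to 5.60 CPM, the highest of the 10 kidneys (0.424 to 5.60 CPM), and the 8 fat cell markers to 327 CPM, also the highest (126 to 327 CPM). Of the urothelium markers tested in kidney, 5 of 5 had values above 0 with 7c and 1 an unadjusted p under 0.05, beside 2.61% of all genes, with a median log2 difference of 1.00. None of the 6 urothelium markers and none of the 8 fat cell markers was at 0 in all kidneys of either group, and their part in the Foxa1 counts was not tested. In a joint fit of both tissues the log2 difference of Foxa1 with 7c in kidney was 2.93 (unadjusted p = 0.0227, adjusted p = 1.00, edgeR), and without a filter 3.16 (unadjusted p = 0.0539, adjusted p = 0.777, edgeR).

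Foxa2, a forkhead factor of the early gut tube and liver and of bile acid handling in the adult, was read at 26.9 to 69.6 CPM in liver. Vehicle livers had 40.1, 38.0, 33.2 and 27.5 CPM, and 7c livers had a lowest value of 26.9, a median of 39.2 and a highest value of 69.6 CPM. Of the 7c livers, 2 lay above all vehicle livers and 1 below them. Kidneys had 0 to 12 counts, with 6 of 10 at 0, and the lowest liver was 100.2 times the highest kidney.

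Foxa3, the forkhead factor that remains abundant in adult hepatocytes, stood at 71.6, 36.0, 32.3 and 32.3 CPM in vehicle livers. In 7c livers it had a lowest value of 32.4, a median of 46.3 and a highest value of 60.7 CPM, all within the vehicle range because of the single vehicle liver at 71.6 CPM. Kidneys had 0 to 26 counts, and the lowest liver was 64.3 times the highest kidney (0.502 CPM).

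Cebpa, which drives gluconeogenic and other metabolic genes of the hepatocyte, had the highest level of the 8 factors in liver, also per length of exon. Vehicle livers had 382, 409, 538 and 418 CPM, and 7c livers had a lowest value of 346, a median of 413 and a highest value of 586 CPM, with 1 of 6 above and 1 of 6 below all vehicle livers. Unlike the FOXA genes, Cebpa was also read well in kidney, at 21.4, 31.1, 29.2 and 25.9 CPM in vehicle mice and 24.8 to 34.6 CPM (median 28.4) in 7c mice. Its mean was 16.2 times higher in liver than in kidney in vehicle mice and 15.0 times higher in 7c mice. On the log2 scale the fitted difference was 4.06 (SE 0.189, adjusted p = 4.19e-14) in vehicle and 3.95 (SE 0.153, adjusted p = 9.81e-16) in 7c mice by edgeR's quasi-likelihood test.

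Onecut1, a homeodomain factor of hepatocyte and bile duct differentiation, was the most variable in liver of the factors that passed the count filter there. Vehicle livers had 10.7, 2.03, 5.89 and 6.04 CPM. The 7c livers had 5.84, 41.4, 18.8, 2.94, 2.02 and 15.2 CPM in replicates 1 to 6, so that 3 of 6 were above all vehicle livers and 1 was below them. The values spanned 20.5-fold over the 10 livers (45 to 1037 counts) and 9.29-fold without the highest. The coefficient of variation was 109%, above that of 99.4% of the 15012 genes tested in liver, whose median was 20.9%. Onecut1 had 0 counts in all 10 kidneys. Against a floor of 3 counts per library, the liver mean was at least 88.1-fold higher in vehicle mice and at least 231-fold higher in 7c mice (at least 144-fold without replicate 2). If both reads of a pair were counted, as the even counts leave possible, a floor of 6 counts gives at least 44.0-fold and 115-fold.

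Prox1, a homeodomain factor of hepatoblasts and hepatocytes that also defines lymphatic endothelium, was read in both tissues. Vehicle livers had 92.1, 90.7, 119 and 100.4 CPM, and 7c livers 76.5, 91.9, 51.1, 86.4, 78.5 and 58.9 CPM in replicates 1 to 6. In 5 of 6 mice the 7c liver was below every vehicle liver, and that of replicate 2 lay among them. Kidneys had 2.33, 1.92, 3.16 and 2.26 CPM in vehicle mice and 1.76 to 4.06 CPM (median 2.94) in 7c mice, from 70 to 228 counts. The mean was 41.6 times higher in liver in vehicle mice and 25.9 times higher in 7c mice, with fitted log2 differences of 5.41 (SE 0.262, adjusted p = 7.95e-14) and 4.72 (SE 0.206, adjusted p = 7.60e-15) by edgeR's quasi-likelihood test.

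Pax2, which acts in the early nephric lineage and is kept in collecting duct cells, stood at 24.8, 33.2, 24.5 and 28.3 CPM in vehicle kidneys and at 27.7 to 36.3 CPM (median 29.6) in 7c kidneys. It had 0 counts in all 10 livers. Against a floor of 3 counts per library, the kidney mean was at least 254-fold higher in vehicle mice and at least 241-fold higher in 7c mice, and against 6 counts at least 127-fold and 120.4-fold. Pax8, its partner in nephron formation and also a thyroid factor, stood at 67.2, 69.1, 57.5 and 62.7 CPM in vehicle kidneys and at 52.3 to 72.4 CPM (median 64.6) in 7c kidneys. Both genes varied little between kidneys. The coefficient of variation was 9.90% for Pax8 and 12.3% for Pax2, and 8.63% and 15.6% of the genes tested in kidney had a lower one, beside a median of 23.9%.

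Unlike Pax2, Pax8 was not at 0 in liver. Vehicle livers had 7, 4, 1 and 4 counts and 7c livers 2, 41, 42, 2, 0 and 12 counts, so that the livers of 7c replicates 2 and 3 stood apart, at 1.64 and 1.68 CPM. Pax8 did not pass the count filter in liver and was not tested there, and in a joint fit of both tissues its log2 difference with 7c in liver was 2.21 (unadjusted p = 0.0110, adjusted p = 0.519, edgeR), and without a filter 2.14 (unadjusted p = 0.0712, adjusted p = 0.641, edgeR). The lowest kidney was 31.2 times the highest liver. The kidney markers Umod, Slc12a1, Kcnj1 and Slc34a1 were at 0 counts in both of these livers, and the 7 proximal tubule markers summed to 168 and 150.2 CPM there, beside 88.9 to 164 CPM in the other 8. The sums of 6 loop of Henle and distal tubule markers were 1.68 and 0.479 CPM in the livers of replicates 2 and 3, and 0 to 29.6 CPM over all livers. The 29.6 CPM was in 7c replicate 6, where Umod, Slc12a1 and Kcnj1 were at 0 counts and the skeletal muscle markers summed to 770 CPM. The source of this sum was not tested. The liver of 7c replicate 2 was also the highest of the 10 for Foxa1, Foxa2 and Onecut1, and that of replicate 3 the next highest for Foxa2 and Onecut1.

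**Figure D2:**
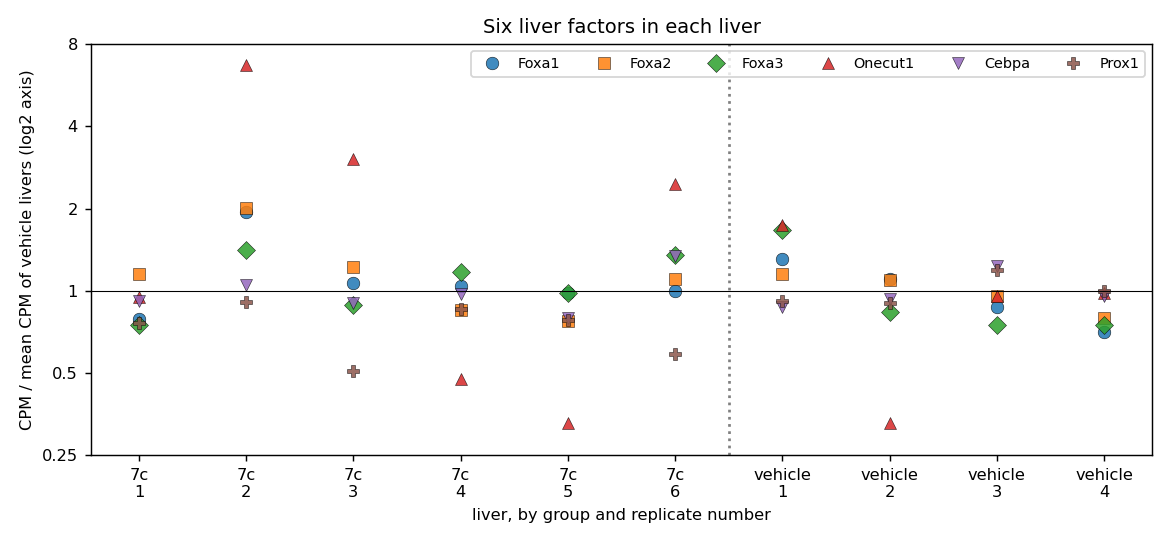
Level of the 6 liver factors in each of the 10 livers, as CPM divided by the mean CPM of the 4 vehicle livers (log2 vertical axis), with the livers along the horizontal axis and a symbol for each gene. Onecut1 spans 20.5-fold over the livers and Cebpa 1.69-fold, and the liver of 7c replicate 2 is the highest for Foxa1, Foxa2 and Onecut1.

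The levels of different genes were compared per kilobase of exon, as CPM per kb (mean ± SD over the 10 libraries of a tissue, n = 10). In liver, Cebpa was at 165 ± 27.8 CPM per kb and did not overlap with any other factor. Foxa3 followed at 22.2 ± 6.86 and Foxa2 at 11.3 ± 3.62, and although their ranges overlapped, Foxa3 was above Foxa2 in 10 of 10 livers. Prox1 at 9.43 ± 2.20 did not stand apart from Foxa2, which was above it in 6 of 10 livers, nor clearly from Foxa1 at 6.11 ± 1.95, which it exceeded in 8 of 10. Onecut1 was the lowest liver factor at 1.91 ± 2.08, below Foxa1 in 10 of 10 livers with overlapping ranges, and it stayed above Pax8 (0.0639 CPM per kb) without overlap.

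In kidney, Cebpa, named as a liver factor, was at 10.7 ± 1.59 CPM per kb (n = 10), and Pax8 was at 8.86 ± 0.877. Cebpa was above Pax8 in 7 of 10 kidneys with overlapping ranges, and this order turned with the length used, because the exons of Pax8 join to 7221 bases while its longest transcript has 3723: per kb of the longest transcript, Pax8 was at 17.2 and Cebpa at 10.7 CPM per kb. Pax2 at 4.51 ± 0.554 was below Pax8 and above Prox1 (0.299 ± 0.0836) without overlap. Foxa3, Foxa1 and Foxa2 were at 0.0651, 0.0231 and 0.0197 CPM per kb in kidney and did not differ beyond their spread, and Onecut1 was at 0.

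**Figure D3:**
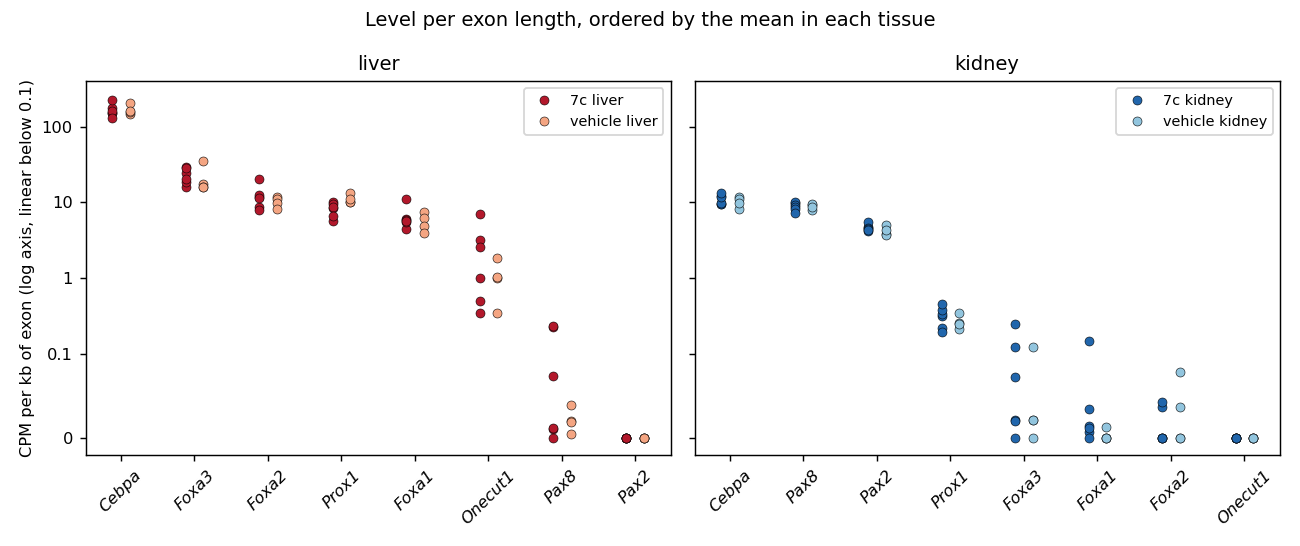
Level per length of the 8 factors in liver and in kidney, as TMM-scaled CPM per kb of joined exons (vertical axis, logarithmic and linear below 0.1), with a point for each library by treatment and the genes ordered by their mean in that tissue. Cebpa leads in liver with a mean of 165 CPM per kb, and in kidney Cebpa (10.7) and Pax8 (8.86) overlap.

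The treatment changed none of the 8 factors past the threshold. In liver, 0 of the 6 factors tested had an adjusted p under 0.05 in edgeR's quasi-likelihood test, beside 0.00666% of the 15012 genes (1 gene), and 1 of the 6, Prox1, had an unadjusted p under 0.05, beside 3.76% of genes. In kidney, 0 of the 4 factors tested was past the threshold, beside 0.0% of 17749 genes, and 0 of 4 at an unadjusted p under 0.05, beside 2.61% (463 genes). DESeq2, limma-voom and edgeR's likelihood ratio test also called 0 factors in either tissue, while DESeq2 called 6 genes in liver and 18 in kidney. In neither tissue did the 7c and vehicle ranges of a factor separate, beside 0.659% of genes in liver and 0.721% in kidney.

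Prox1 had the smallest p of the 6 factors in liver. The mean was 73.9 ± 15.8 CPM in the 7c livers (SD, n = 6) and 101 ± 13.2 CPM in the vehicle livers (SD, n = 4), a fold of 0.720 (95% interval 0.572 to 0.905). On the log2 scale this was -0.47 (SE 0.154), with an unadjusted p of 0.00836 and an adjusted p of 1.00 in edgeR's quasi-likelihood test, so that it did not pass the correction. At an unadjusted p under 0.05, 1.95% of all genes were lower with 7c. The 6 lymphatic endothelium markers summed to 81.5 to 137 CPM in 7c livers and 92.3 to 131 CPM in vehicle livers, none at 0. The hepatocyte markers summed to 101266 to 142480 and 104731 to 125707 CPM, and neither sum separated the groups. Of the 5 lymphatic markers tested in liver, 3 had values below 0 and 2 above, none at an unadjusted p under 0.05, with a median log2 difference of -0.12. Of the bile duct cell markers tested in liver, 5 of 6 had values below 0 as Prox1 did and 2 an unadjusted p under 0.05, with a median log2 difference of -0.36 and sums over 7 markers of 88.3 to 113 CPM with 7c and up to 144 CPM with vehicle, where the ranges overlapped and none was at 0. The part of these marker lists in the Prox1 value was not tested. Prox1os, an antisense RNA that overlaps Prox1, was at 8.10 ± 1.91 CPM with 7c (n = 6) and 7.31 ± 2.64 CPM with vehicle (n = 4), a log2 difference of 0.13 (SE 0.265).

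In kidney Prox1 was at 2.86 ± 0.869 CPM with 7c (n = 6) and 2.42 ± 0.523 CPM with vehicle (n = 4), a log2 difference of 0.23 (SE 0.259, interval -0.33 to 0.79). The test of whether the effect of 7c on Prox1 differed between liver and kidney gave -0.72 on the log2 scale (SE 0.286, interval -1.31 to -0.13, unadjusted p = 0.0199, adjusted p = 1.00, edgeR), and did not pass the correction. For Cebpa this difference was -0.14 (SE 0.220, interval -0.59 to 0.32). Neither of these 2 factors was called, beside 0.00706% of the 14163 genes tested in both tissues (1 gene), and 1 of the 2 had an unadjusted p under 0.05, beside 2.49%.

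Among the forkhead genes in liver, the log2 difference between 7c and vehicle was 0.17 for Foxa1 (SE 0.234, interval -0.34 to 0.67), 0.23 for Foxa2 (SE 0.224, interval -0.25 to 0.71) and 0.10 for Foxa3 (SE 0.239, interval -0.41 to 0.62). Cebpa was at 435 ± 82.6 CPM with 7c (n = 6) and 437 ± 69.2 CPM with vehicle (n = 4), and its log2 difference of -0.03 (SE 0.145) had the narrowest interval in liver, -0.34 to 0.28. Onecut1 was at 14.4 ± 14.9 CPM with 7c (n = 6) and 6.18 ± 3.56 CPM with vehicle (n = 4). Its log2 difference of 1.19 (SE 0.726, unadjusted p = 0.123 and adjusted p = 1.00 in edgeR's quasi-likelihood test) had an interval of -0.37 to 2.76, or 0.774-fold to 6.76-fold. Without 7c replicate 2, the liver with the highest Onecut1, the difference was 0.52.

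In kidney, Pax2 was at 30.4 ± 3.15 CPM with 7c (n = 6) and 27.7 ± 4.06 CPM with vehicle (n = 4), a log2 difference of 0.12 (SE 0.122, interval -0.14 to 0.39). Pax8 was at 63.8 ± 7.48 CPM with 7c (n = 6) and 64.1 ± 5.19 CPM with vehicle (n = 4), a log2 difference of -0.02 (SE 0.111, interval -0.26 to 0.22). Cebpa was at 29.0 ± 4.30 CPM with 7c (n = 6) and 26.9 ± 4.26 CPM with vehicle (n = 4), a log2 difference of 0.10 (SE 0.147, interval -0.22 to 0.42). These intervals leave room for folds between 0.836 and 1.17 for Pax8, 0.908 and 1.31 for Pax2 and 0.858 and 1.33 for Cebpa.

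**Figure D4:**
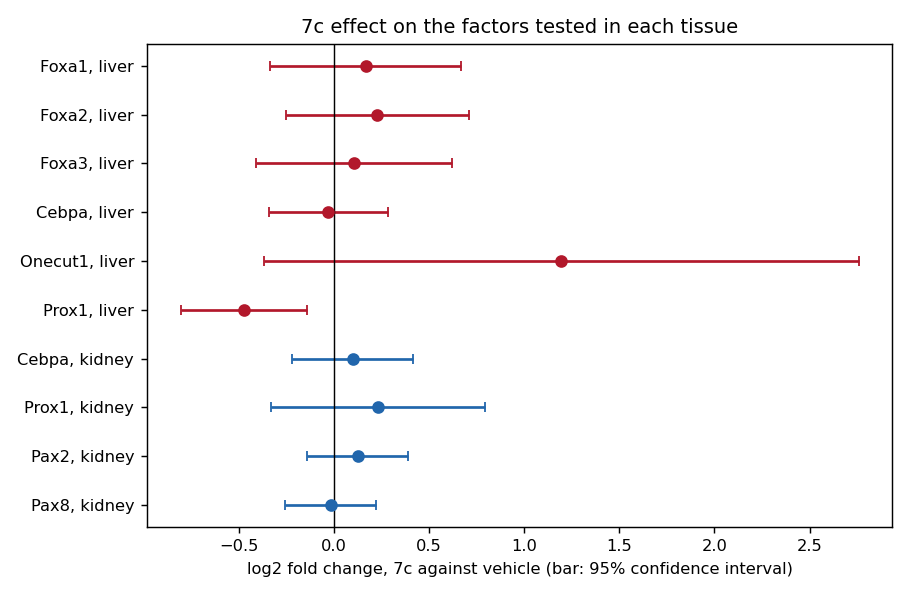
Difference between 7c (n = 6) and vehicle (n = 4) for each factor that passed the count filter, as the log2 fold change of edgeR's fit (horizontal axis) with its 95% interval, in liver and in kidney. Every interval but that of Prox1 in liver (-0.81 to -0.14) includes 0, and Onecut1 has the widest.

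A split among the 7c libraries touched the values of both tissues. Equal replicate numbers of liver and kidney are not stated to be 1 mouse, and libraries are named here by number only. In 7c replicates 4, 5 and 6, the clock output gene Dbp, a PAR bZIP factor, was at 76.8 to 93.6 CPM in kidney and 29.7 to 115 CPM in liver, and in the other 7 libraries of each tissue at 5.23 to 29.5 CPM and 0.319 to 6.25 CPM. Bmal1, a core clock activator looked up after its values were seen, ran the other way, at 2.03 to 2.59 CPM in the kidneys of those 3 numbers and 7.31 to 22.4 CPM in the others. In liver it was at 6.12 to 23.0 CPM in those numbers and 31.3 to 48.0 CPM in the others. Without these 3, the log2 difference of 7c from vehicle in kidney was -0.11 for Cebpa and 0.10 for Pax8, each of the opposite sign. In liver, it was -0.49 for Prox1, 1.81 in place of 1.19 for Onecut1 (unadjusted p = 0.0108, adjusted p = 1.00, edgeR) and 0.53 in place of 0.23 for Foxa2 (unadjusted p = 0.0230, adjusted p = 1.00, edgeR). With all libraries but 7c replicate 2, the Foxa2 value was 0.015. The part of the clock genes in these values was not tested.

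Genes that overlap or neighbour the factors were examined, since the strand setting of the counting is not stated and without strand the reads of antisense partners cannot be told apart. Gm45091, a lncRNA antisense to Cebpa, was at 1.08 ± 0.328 CPM in 7c livers (n = 6) and 1.54 ± 1.15 in vehicle livers (n = 4), far under Cebpa. Sympk, which encodes a scaffold of mRNA 3-prime end processing and starts 764 bp from Foxa3 on the other strand, had group means of 81.1 and 89.8 CPM in vehicle and 7c livers and of 99.9 and 112 CPM in vehicle and 7c kidneys, with log2 differences of 0.13 (SE 0.126) in liver and 0.15 (SE 0.199) in kidney. At Pax2, the overlapping Gm26644, 1700039E22Rik and Mir6405 had at most 34 counts in any library. Gm13415, antisense to Pax8, was at 0.293 ± 0.143 CPM in 7c (n = 6) and 0.477 ± 0.171 CPM in vehicle kidneys (n = 4), a log2 difference of -0.72 (SE 0.463).

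The lncRNAs 9030622O22Rik and Gm16551, farther from a factor, were picked after their values were seen. The first, on the strand of Foxa2 with starts 6436 bp apart, was at 26.7 ± 8.12 CPM in 7c livers (n = 6) and 32.2 ± 6.06 CPM in vehicle livers (n = 4), and had 0 counts in 9 of 10 kidneys. The other, on the strand of Onecut1 with starts 13853 bp apart, was at 11.7 ± 6.40 and 10.9 ± 5.03 CPM in the 7c and vehicle livers and at 0 counts in all kidneys. Both were highest in the liver of 7c replicate 2, at 42.3 and 24.0 CPM, as were Foxa2 and Onecut1.

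For each factor, the genes whose pattern over the 10 libraries of its tissue was nearest were found by the root mean square distance between log2 CPM values centred and scaled per gene. The median distance of all genes was 1.31 to 1.36. Onecut1 was nearest to Srm (0.434) and Gm57341 (0.443), and Foxa2 was rank 16 of 15011 genes for it, at 0.621. Foxa2 was nearest to B4galt1 (0.285) and Clca3a1 (0.361), and Foxa1 to Fam222b (0.323) and Rnd3 (0.346). Of these, Srm, B4galt1, Clca3a1, Fam222b and Rnd3 were highest in the liver of 7c replicate 2. Foxa3 was nearest to Hnrnph1 (0.377) and Mob4 (0.416), Cebpa to Mllt3 (0.455) and Cbx8 (0.521), and Prox1 to Zbtb7c (0.343) and Gm56814 (0.386). In kidney, Pax2 was nearest to Loxl1 (0.247) and Gm8606 (0.249) and Pax8 to Calr (0.358) and Gcsh (0.382), and the distance between Pax2 and Pax8 was 0.908. These are descriptions over n = 10 libraries, with the same libraries and depths behind every gene of a tissue.

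Other genes of the same programmes were taken from lists. Because a gene that passed the count filter in a single tissue was favoured to differ, they were counted over the genes that passed in both, where 30.0% of all genes were higher in liver and 25.8% higher in kidney past the threshold in vehicle mice (34.4% and 28.8% in 7c mice), with a median log2 difference of 0.06. Of 26 other liver transcription factors, 23 passed in both, and 12 of these were higher in liver and 4 in kidney in vehicle mice (14 and 5 in 7c mice), with a median of 0.95. Gata4, Onecut2 and Nr1i3 passed only in liver, so that they are not among these 23 and were favoured to differ. Gata4, a partner of FOXA in early liver, had 552 to 686 counts in vehicle livers and 0 in vehicle kidneys. Onecut2, the closest relative of Onecut1, had 1376 to 1894 and 0 to 4, and Nr1i3, the xenobiotic receptor CAR, 681 to 1387 and 0 to 4. The PAR bZIP factor Tef was higher in kidney (log2 -1.30, SE 0.405, adjusted p = 0.00916 in edgeR's quasi-likelihood test, and 0.0515 without vehicle replicate 3), while Dbp had a value of -1.87 that did not pass (SE 1.14, adjusted p = 0.168, and 0.000203 with only the vehicle groups in the fit).

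Of 40 other kidney transcription factors, 37 were tested, 21 of them through a single tissue. Of the 16 that passed in both, 9 were higher in kidney and 1 in liver in both treatment groups, with a median of -2.17 in vehicle mice. Pou3f3, Emx1 and Emx2, homeodomain and POU factors of nephron segments, passed only in kidney and are not among these 16. They had 0 counts in all livers and means of 61.4, 37.4 and 30.6 CPM in vehicle kidneys. Elf5, an epithelial ETS factor, had a log2 difference of 0.18 (SE 0.690). Among 37 listed relatives of the 8 factors found in the table, 31 were tested and 21 passed in both tissues. Of these 21, 8 were higher in liver and 3 in kidney in vehicle mice, beside 30.0% and 25.8% of all genes, with a median of 0.42, and 12 and 3 in 7c mice, beside 34.4% and 28.8%. The relatives with the largest tissue differences all passed in a single tissue and are not among these 21. Foxi1, the forkhead factor of intercalated cells, had 0 counts in all livers and 22.6 CPM in vehicle kidneys. Foxd1 had 0 counts and 0.999 CPM, and Foxc2 3.34 CPM in vehicle kidneys. Cebpe had 2 to 225 counts in vehicle livers and 0 to 1 in vehicle kidneys, and Foxf1 46 to 118 and 4 to 12.

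Genes known to be regulated by the factors were counted in the same way. Of 19 liver genes regulated by FOXA or C/EBP alpha, 16 passed in both tissues, and 14 of these were higher in liver in vehicle mice and 15 in 7c mice, 0 in kidney, beside the same 30.0% and 34.4% of all genes. Their median was 7.61 in vehicle mice. Tdo2 and Cps1, enzymes of tryptophan breakdown and the urea cycle, had log2 differences of 12.11 and 12.07, with 10 to 38 and 18 to 58 counts in vehicle kidneys. Cyp7a1, the rate-limiting enzyme of bile acid synthesis, passed only in liver and is not among these 16. It had 2651 to 3772 counts in vehicle livers and 0 to 4 in vehicle kidneys, so that its fitted difference of 12.05 was not firm. This difference ranged from 11.57 to 15.05 when the libraries of 1 replicate number were left out, the highest without vehicle replicate 2. Of 11 tested genes regulated by PAX2 or PAX8, 4 passed in both tissues, of which 2 were higher in kidney and 1 in liver in both treatment groups. Wnt4 was the 1 higher in liver in vehicle mice (log2 1.75, SE 0.526, adjusted p = 0.00713, edgeR). Cdh16 and Lhx1 passed only in kidney and are not among these 4. Cdh16, the kidney-specific cadherin, had 0 counts in all livers and 1070 ± 125 CPM in vehicle kidneys (n = 4), and Lhx1 had 16.3 CPM in vehicle kidneys.

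**Figure D5:**
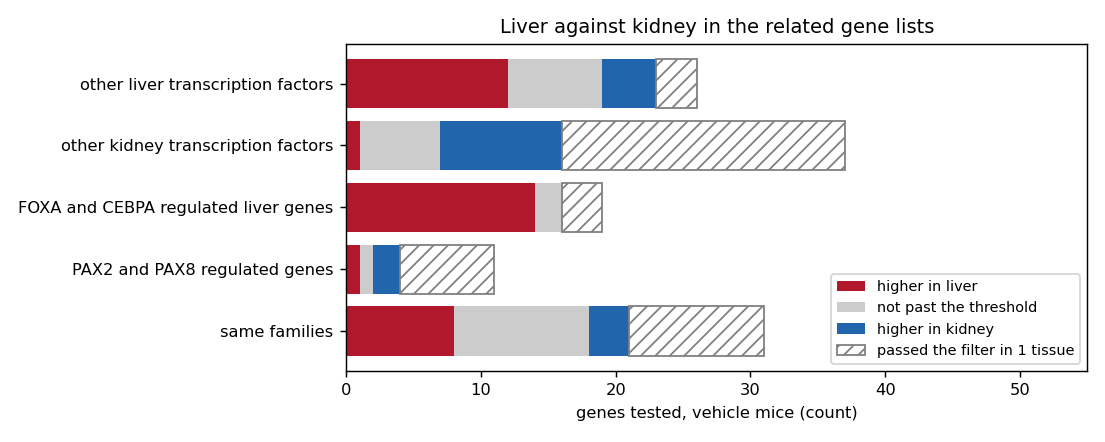
Number of tested genes of each list (horizontal axis) in vehicle mice (n = 4 of each tissue, edgeR). Among genes that passed the count filter in both tissues, colours show those higher in liver, higher in kidney or not past an adjusted p of 0.05, and hatched bars show genes that passed in 1 tissue and were left out of the counts. Of the genes regulated by FOXA or C/EBP alpha 14 of 16 are higher in liver, and of the other kidney transcription factors 9 of 16 are higher in kidney.

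With 7c, 0 genes of the 5 lists passed the threshold of edgeR's quasi-likelihood test in liver or in kidney, beside 0.00666% and 0.0% of all genes. Medians in liver lay between -0.02 (FOXA and C/EBP alpha regulated genes) and 0.25 (the 4 tested genes regulated by PAX2 or PAX8), and in kidney between -0.30 and 0.04, beside 0.00 and -0.01 over all genes. At an unadjusted p under 0.05, 4 of the 26 liver transcription factors differed in liver (3 higher and 1 lower) and 1 of 23 in kidney, and 0 of 16 kidney factors in liver and 4 of 37 in kidney (3 higher and 1 lower). Over all genes this share was 3.76% in liver and 2.61% in kidney.

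Among the 26 other liver transcription factors, the smallest p in liver was that of Cebpb, the C/EBP relative of acute-phase and regenerating liver. Vehicle livers had 17.7, 20.1, 22.5 and 35.8 CPM and 7c livers 27.9 to 52.0 CPM, and vehicle kidneys had 6.72, 8.54, 4.80 and 8.68 CPM and 7c kidneys 7.47 to 13.8 CPM. The log2 difference was 0.68 in liver (SE 0.228, unadjusted p = 0.0106, adjusted p = 1.00, edgeR) and 0.55 in kidney (SE 0.205, unadjusted p = 0.0193, adjusted p = 0.997, edgeR), with overlapping groups in both. Of the blood cell markers, 3 of 4 tested in liver and 5 of 6 in kidney had values above 0 with 7c, none at an unadjusted p under 0.05, with medians of 0.60 and 0.51. Their sums, none of the 6 at 0, were 468 to 1514 CPM in 7c and 536 to 678 CPM in vehicle livers, and 349 to 1697 and 233 to 970 CPM in the kidneys. The highest pair of sums was in 7c livers 5 and 6 and in 7c kidneys 1 and 5, which also held the highest Cebpb of each tissue, and their part in Cebpb was not tested. Cebpd, another C/EBP relative, had 0.51 in liver (SE 0.238), and Nr5a2, a nuclear receptor of bile acid synthesis, -0.29 (SE 0.106). In kidney, Ppara, the receptor that drives fatty acid oxidation, had -0.49 (SE 0.241), Maf -0.30 (SE 0.106), Elf3 0.39 (SE 0.154) and Cux2 0.47 (SE 0.249), the last 0.10 without 7c replicates 4, 5 and 6. In the same kidneys, 8 of 8 fat cell markers had values above 0 with 7c, none past the threshold and 7 at an unadjusted p under 0.05, with a median log2 difference of 2.13 and sums of 177 to 327 CPM with 7c and 126 to 216 CPM with vehicle. Their part in these values was not tested. Bhlhe41, read at low levels in liver, had a large error, at 2.20 (SE 1.06), and the opposite sign without 7c replicates 4, 5 and 6.

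Among the regulated genes, Afp, the fetal serum protein, had 0.48 (SE 0.246) and Ttr, the thyroid hormone carrier, 0.21 (SE 0.129) in liver. In kidney, 13 of the 16 tested genes regulated by FOXA or C/EBP alpha had a value below 0 and 4 an unadjusted p under 0.05, beside 2.61% of all genes. Cps1 had 18 to 58 counts in vehicle and 0 to 14 in 7c kidneys, a log2 difference of -2.99 (SE 0.765, unadjusted p = 0.00195, adjusted p = 0.997, edgeR), and Ahsg, a secreted liver glycoprotein, 32 to 134 and 6 to 54 counts, -2.20 (unadjusted p = 0.00396, adjusted p = 0.997, edgeR). With both tissues in 1 fit, the adjusted p of Cps1 in kidney was 0.00613, past the threshold. These counts were small beside the 92671 to 127520 counts of Cps1 in vehicle livers. The sum of the 8 hepatocyte markers did not separate the kidney groups (2530 to 3683 CPM with 7c and 2968 to 3463 CPM with vehicle). Cps1, with means of 0.112 CPM in 7c and 0.922 CPM in vehicle kidneys, is a very small part of this sum, which could not show a change of that size. Of these markers, 7 of which are also among the regulated genes, 7 of 8 had a value below 0 in kidney and 3 an unadjusted p under 0.05, with a median of -0.56. Whether traces of liver RNA had a part in them was not tested. Of the genes regulated by PAX2 or PAX8, Slc14a2, a urea transporter of the inner medulla, had a log2 difference of 1.28 (188 to 1056 counts with 7c and 20 to 854 with vehicle, unadjusted p = 0.148, adjusted p = 0.997, edgeR), which was 3.16 without vehicle replicate 2 and 0.34 without 7c replicates 4, 5 and 6, and Npnt -0.13 (SE 0.165) in kidney, and Mycn had 0.53 (SE 0.514) and Wt1 -0.63 (SE 0.673) in liver.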

How the data were processed

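RNA of liver and kidney from 10 mice per tissue was analysed, 6 given 7c and 4 given vehicle, grouped by the labels. Stranded libraries had been prepared from polyadenylated RNA. The authors deposited raw counts per gene, without normalization, made with STAR 2.7.11b and featureCounts 2.0.6 on GRCm39 per the submitters' processing notes. The annotation release, the strand setting and the treatment of reads with several positions are not given in the sources used here. Symbols, positions and exon lengths came from GENCODE vM39 and promoters from RefSeq (GRCm38.p6). No amino acid sequences were used here.

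A gene entered the test of a tissue where 50% or more of its libraries held 10 counts or more. The test was the quasi-likelihood F-test of edgeR 4.0.16 (R 4.3.3) after TMM scaling, p-values were adjusted over all genes tested by the Benjamini-Hochberg method, and the threshold was 0.05. Each tissue had its own fit for 7c against vehicle. The tissue contrasts and the difference of the 7c effects came from 1 fit of the 4 groups, on genes that passed in either tissue (18598) or in both (14163). Printed CPM use TMM factors over all 20 libraries. The scripts were tested on simulated counts. The study took both organs from its mice, but nothing in the labels ties samples of equal number to 1 mouse. Tissue contrasts therefore treat libraries as independent and leave out any pairing. The p-values set a difference against the spread between these samples.

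The factors and lists were chosen with earlier results of these data known. The rule for other named genes was every annotated gene overlapping a factor or starting within 5 kb of its start with at least 10 counts in a library, of each list the 2 genes of smallest p in each tissue and the 3 with the largest tissue difference in each direction, and for each factor the 2 genes of nearest pattern. The values of some genes named by this rule are not reported here. Alternatives replaced the test (DESeq2 1.42.0, the likelihood ratio test of edgeR, voom in limma 3.58.1), the scaling (RLE size factors, other lengths), the filter (none, filterByExpr) or the design (a block for the replicate number, a joint fit of both tissues, a fit of only the groups compared), or left out the libraries of each replicate number in turn. Leaving out 7c replicates 4, 5 and 6 was added after the data were seen. Columns of all 20 samples were used.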

Additional observations from a re-analysis of the deposited data

Results flagged for a closer look

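In 26 groups of 4 or 6 libraries in which a factor reached 10 counts in at least 1 library, 4 values stood far from the rest of their group by Dixon's test at the 95% level, which chance gives in about 1 in 20 groups. In the liver of 7c replicate 2, Foxa1 was at 36.8 CPM (922 counts) and Foxa2 at 69.6 CPM (1744 counts), each the highest of the 6 7c livers. In the liver of vehicle replicate 1, Foxa3 was at 71.6 CPM (1787 counts), with the other 3 vehicle livers at 32.3 to 36.0 CPM. In the kidney of 7c replicate 5, Foxa1 was at 0.503 CPM (20 counts), with the other 7c kidneys at 0 to 6 counts.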

How the results depend on the processing

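The number of factors past the threshold stayed at 0 for 7c in liver, 0 in kidney and 0 for the difference between the tissues, under every alternative run. In each tissue contrast 8 factors were called, 6 of them genes that passed the filter in a single tissue, so that this count says nothing about stability. Where a gene had to pass in liver and in kidney to be tested, 2 of 2 factors (Cebpa and Prox1) were called in each tissue contrast. The liver value of Prox1 stayed between -0.54 and -0.37 when 1 library was left out, and its unadjusted p was under 0.05 in every alternative but the block, where it was 0.0542.

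Values of factors near 0 changed sign when libraries were left out, and none of them passed the threshold. Over all numbers left out in turn, the lowest and highest values were -0.050 and 0.33 for Foxa1 in liver, -0.0018 and 0.47 for Foxa3 in liver, -0.13 and 0.10 for Cebpa in liver, and -0.067 and 0.030 for Pax8 in kidney. Foxa1 was below 0 without 7c replicate 2, Foxa3 without vehicle replicate 3 or 4, and Cebpa was above 0 without 7c replicate 5 or vehicle replicate 3. The 0.47 of Foxa3 was reached without vehicle replicate 1, the liver flagged above, with an unadjusted p of 0.0278 in edgeR's quasi-likelihood test. Among other genes the ranges were -0.88 to 0.057 for Gm45091 in liver and -0.21 to 0.48 in kidney, -0.26 to 0.34 for Gm16551 in liver, -0.10 to 0.25 for Prox1os in liver, -0.33 to 0.28 for Gm26644 in kidney, and -0.64 to 0.82 for the tissue difference of Elf5. Without 7c replicates 4, 5 and 6, the kidney values were -0.11 for Cebpa, 0.099 for Pax8, 0.11 for Npnt, -0.011 for Sympk, -0.57 for Gm45091 and -0.36 for Gm26644. The liver values were then -1.07 for Bhlhe41, -0.073 for Mycn and -0.011 for Sympk, and the difference of the tissues for Cebpa was 0.020. With limma-voom, Elf5 was at -0.45 and Gm26644 at -0.13. The cause was not tested.

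The replicate number as a block changed no call of a factor. With the block the kidney values of Cebpa, Pax8 and Npnt were -0.0090, 0.067 and 0.020, those of Gm45091 and Gm26644 -0.11 and -0.34, the liver value of Bhlhe41 -0.25 and the tissue difference of Elf5 -0.34, and 0 genes were called in liver instead of 1. Livers and kidneys of the same number deviated together with correlations of 0.0131 to 0.259, above 0.1 in 7 of 10, and 8 of 10 correlated best with their own number, a hint from the data and not from the design. Within a tissue, 7c and vehicle samples of the same number had -0.0437 to 0.221.

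Over all genes, the count for 7c in liver was 1 and ranged from 0 to 12 (6 with DESeq2, 7 with the likelihood ratio test, 4 without a filter, 12 with both tissues in 1 fit). In kidney it was 0 and ranged to 20 (18 with DESeq2, 14 with the likelihood ratio test, 20 with both tissues in 1 fit), and for the difference of the tissues it was 1 and ranged from 0 to 22. Tables of 10 livers and 10 kidneys limit what can be seen for Foxa1, Foxa2 and Foxa3 in kidney and Pax8 in liver, which held at most 42 counts.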
